A study of Mus musculus with 8 samples.

Results

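The genes described here are p53 pathway genes and cyclin-dependent kinase inhibitors that hinder the reprogramming of somatic cells, read in clones of mouse induced pluripotent stem (iPS) cells. The rule named 10 genes and took every probe set that is annotated to exactly 1 of them. It found 14 probe sets for 8 genes, out of 18193 genes with a probe set on the array. These 8 are Mdm2, Cdkn1a, Ccng1, Zmat3, Perp, Cdkn1b, Cdkn2a and Cdkn2b. Trp53 and Bax are listed for no probe set in the annotation used here and were not analysed here.

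RNA was measured on Affymetrix mouse expression arrays, 1 per clone, in 4 iPS clones derived in medium with ascorbic acid and 4 derived in medium without it. Both groups came from mouse embryonic fibroblasts (MEFs) of Col-OKSM reprogrammable mice, in which doxycycline switches on Oct4, Sox2, Klf4 and cMyc. Both were derived with LIF, serum and doxycycline on irradiated MEF feeders, and harvested cells were preplated to remove feeders. The labels call the clones biological replicates without naming their embryos or cultures, so a p-value here covers clone-to-clone spread, which may be partly technical.

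p53 is a transcription factor that is held low by Mdm2, a ubiquitin ligase which is itself a p53 target, and that answers DNA damage and oncogenic stress by arresting or killing the cell. Its target Cdkn1a encodes p21, which inhibits cyclin-dependent kinases, as does Cdkn1b, which encodes p27. Cdkn2b and Cdkn2a encode the INK4 inhibitors p15 and p16, which bind CDK4 and CDK6, and Cdkn2a also encodes p19ARF, which blocks Mdm2. In mouse fibroblasts p53, p21 and the Cdkn2a products slow reprogramming, and their loss lets more cells reach the pluripotent state.

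Promoter sequence is shown for the measured genes whose window matches the p53 half-site, which is only a part of a full p53 site. RefSeq windows of 300 bases on GRCm38.p6, from 250 before to 50 after a start site, were found for 8 of the 10 named genes (not Perp and Zmat3), 10 windows in all. The 10-base consensus of the half-site, which reads the same on both strands, matched in 5 of these 10 windows, against 8.36% of all 32851 windows. The rule chose genes of the p53 pathway, so these shares are not a test. A match in letters is a description and not evidence of binding, and a window without one says nothing about p53 elsewhere at the gene. In the stretches below, each written 5′ to 3′ on the strand of its gene, capitals mark the matches.
Cdkn1a, upstream start, chr17:29090881-29090962, plus strand: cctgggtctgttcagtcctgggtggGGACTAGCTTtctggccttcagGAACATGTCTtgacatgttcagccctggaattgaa
Ccng1, chr11:40755437-40755496, minus strand: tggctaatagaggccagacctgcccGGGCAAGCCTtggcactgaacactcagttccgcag
Mdm2, chr10:117710910-117710969, minus strand: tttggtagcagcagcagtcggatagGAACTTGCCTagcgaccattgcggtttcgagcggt

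The matches began 73 and 51 bases upstream of the Cdkn1a start, 185 bases upstream of the Ccng1 start and 186 bases upstream of the Mdm2 start. The remaining 2 windows with a match belong to Trp53 and Bax. The second Cdkn1a start, both Cdkn2a starts, the Cdkn1b start and the Cdkn2b start had no match in their windows.

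No difference between the groups in these genes exceeded the spread between clones. On the brightest probe set of each gene, 4 of the 8 log2 differences were above 0, against 48.6% of all genes, and 4 were below, between -0.14 and 0.17, with a median of -0.01. Over all 13125 tested genes the median was also near 0, at -0.0042. None of the 8 passed an adjusted p of 0.05 (limma, Benjamini-Hochberg over all tested genes), against 0.0229% of all genes. None had an unadjusted limma p under 0.05, against 5.83% of all genes, and in none did the groups fail to overlap, against 3.63%. Of the 14 probe sets, none passed an adjusted p of 0.05 (0.0481% of all tested probe sets did), none had an unadjusted p under 0.05 (5.55% did) and none separated the groups (3.4% did). All 8 gene differences were smaller than 0.2 log2 in size, as were 84.5% of those of all genes. Differences are with minus without ascorbic acid on the log2(signal + 16) scale, which understates changes of dim genes, and signals are linear.

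**Figure D1:**
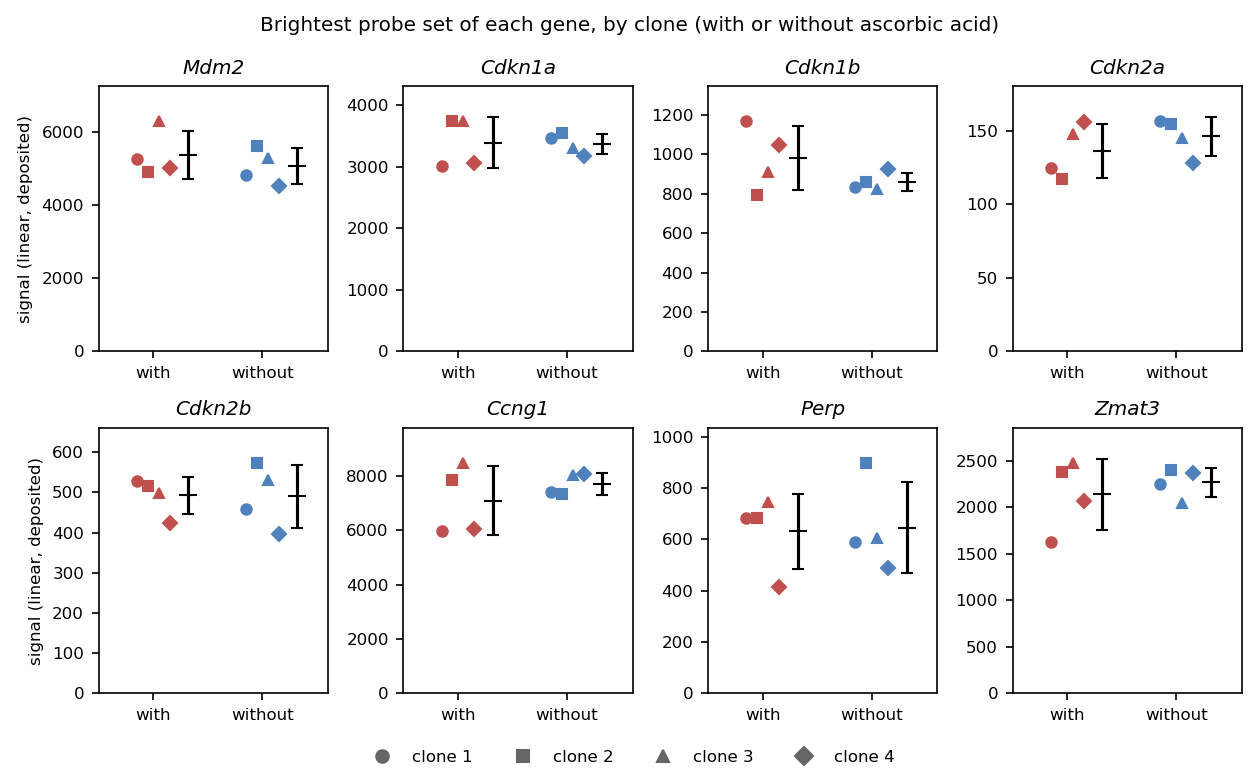
Linear signal of the brightest probe set of each of the 8 genes (y axis, from 0) in each clone with (left) and without (right) ascorbic acid. Marker shape is the clone number, which was not used to pair the groups, and bars are mean ± SD over 4 clones. In every panel the values of the groups overlap.

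Mdm2, the ubiquitin ligase that restrains p53, gave signals of 5273, 4913, 6325 and 5024 in clones 1 to 4 with ascorbic acid, against 4823, 5640, 5299 and 4536 in clones 1 to 4 without it. The highest clone belonged to the group with ascorbic acid and the lowest to the group without, and the other values interleaved. The means were 5384 ± 645 with and 5075 ± 491 without (n = 4 each, SD), which is a log2 difference of 0.08 ± 0.09 (SE; limma, adjusted p = 0.922; exact permutation p = 0.486). On leaving out single clones the difference ran from 0.0032 without clone 3 with ascorbic acid to 0.14 without clone 2 without ascorbic acid. The 95% interval of the fold ran from 0.925 to 1.21.

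The other Mdm2 probe sets did not point one way. Probe set 1427718_a_at read 3296, 3695, 3934 and 3020 with ascorbic acid, against 3156, 3866, 3522 and 3535 without, a log2 difference of -0.02 ± 0.09 (SE; adjusted limma p over all probe sets = 0.988). The dimmer probe set 1457929_at read 145, 119, 118 and 147 with ascorbic acid, against 148, 147, 49.0 and 144 without. Its log2 difference of 0.20 had a 95% interval from -0.41 to 0.81, and clone 3 without ascorbic acid stood far below the rest. No Mdm2 probe set passed the test.

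Cdkn1a, the p21 gene and the best known p53 target, read 3010, 3747, 3752 and 3059 with ascorbic acid, against 3475, 3544, 3300 and 3177 without. The clones with ascorbic acid held both the highest and the lowest pair of values, and the clones without it lay between them. The means were 3392 ± 413 with and 3374 ± 167 without (n = 4 each, SD), which is a log2 difference of 0.00098 ± 0.08 (SE; limma, adjusted p = 0.998; exact permutation p = 0.971), whose sign turned under quantile normalization. The 95% interval of the fold ran from 0.885 to 1.13.

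The second Cdkn1a probe set, 1421679_a_at, read 545, 523, 540 and 467 with ascorbic acid, against 654, 524, 609 and 495 without. Its log2 difference was -0.13 ± 0.10 (SE; adjusted limma p over all probe sets = 0.901). The highest values were in clones 1 and 3 without ascorbic acid, and the groups overlapped.

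Ccng1, which encodes cyclin G1, a p53 target that recruits a phosphatase to Mdm2, read 5989, 7846, 8497 and 6060 with ascorbic acid, against 7402, 7342, 8057 and 8070 without. Clones 1 and 4 with ascorbic acid were the lowest of the 8 and clone 3 with it the highest. The means were 7098 ± 1268 with and 7718 ± 400 without (n = 4 each, SD), which is a log2 difference of -0.14 ± 0.11 (SE; limma, adjusted p = 0.885; exact permutation p = 0.371). Without clone 3 with ascorbic acid the difference was -0.23, with an unadjusted limma p of 0.0330 and an adjusted p of 0.698, while it was -0.061 without clone 1 and -0.066 without clone 4 with ascorbic acid.

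The other Ccng1 probe sets were nearer 0. Probe set 1420827_a_at averaged 6638 ± 774 with and 6835 ± 631 without (SD, n = 4 each; log2 difference -0.05), and 1450017_at averaged 5568 ± 557 with and 5881 ± 420 without (log2 difference -0.08). Across all 3 Ccng1 probe sets the 95% intervals of the fold lay between 0.772 and 1.11. Clone 4 with ascorbic acid was the lowest of the 8 on both of these probe sets, while clone 2 without it was the highest.

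Zmat3, a zinc finger RNA-binding protein induced by p53, read 1633, 2382, 2482 and 2069 with ascorbic acid, against 2250, 2403, 2050 and 2372 without. Clone 1 with ascorbic acid was the lowest of all and clone 3 with it the highest. The log2 difference was -0.10 ± 0.11 (SE; limma, adjusted p = 0.928; exact permutation p = 0.686), and on leaving out single clones it ran from -0.17 without clone 3 to 0.02 without clone 1, both with ascorbic acid.

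Perp, a membrane protein of desmosomes that is also a p53 target linked to apoptosis, varied most between clones. It read 683, 682, 745 and 415 with ascorbic acid, against 590, 899, 604 and 488 without. The lowest value, in clone 4 with ascorbic acid, and the highest, in clone 2 without it, lay 1.08 log2 apart, where the median range over all tested genes was 0.45 log2. The log2 difference between the groups was -0.03 ± 0.20 (SE; limma, adjusted p = 0.988; exact permutation p = 0.886). It was 0.0055 under median centring, 0.16 without clone 4 with ascorbic acid and 0.14 without clone 2 without ascorbic acid.

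**Figure D2:**
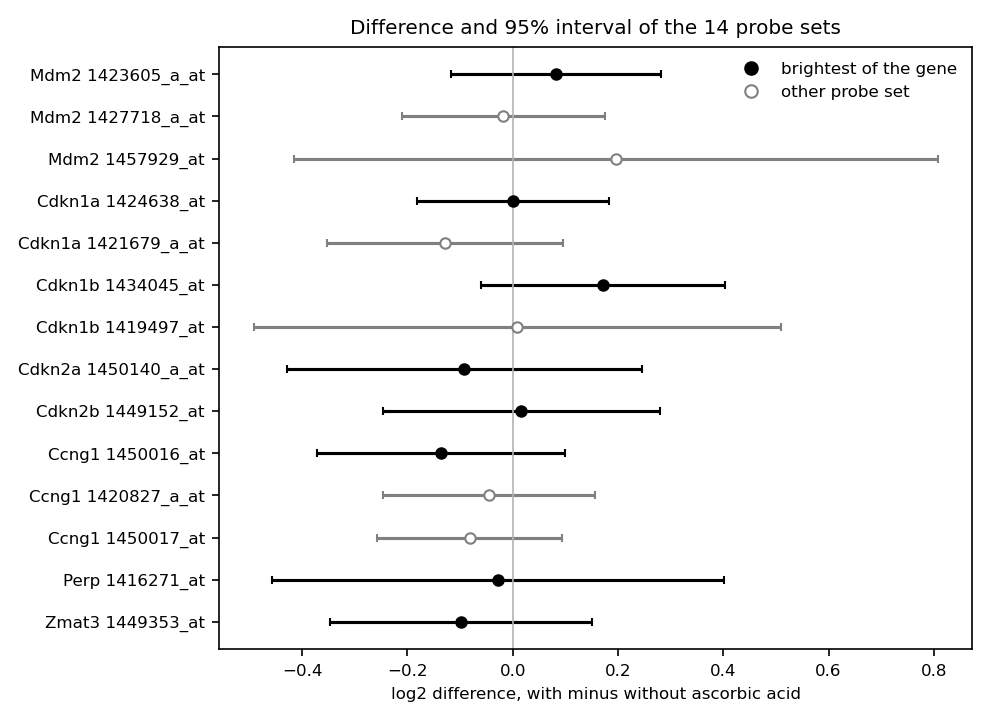
Log2 difference, with minus without ascorbic acid (x axis), for each of the 14 probe sets, with its 95% interval from the limma fit over all probe sets that pass the dim filter. Filled points are the brightest probe set of a gene and open points the others. Every interval contains 0.

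Among the inhibitors that are not counted here as p53 targets, Cdkn1b had the largest difference of the 8 genes. It read 1170, 793, 910 and 1046 with ascorbic acid, against 835, 859, 823 and 923 without. Clones 1 and 4 with ascorbic acid lay above every clone without it, clone 3 fell among them and clone 2 was the lowest of all. The means were 980 ± 164 with and 860 ± 44.3 without (n = 4 each, SD), which is a log2 difference of 0.17 ± 0.11 (SE; limma, adjusted p = 0.844; exact permutation p = 0.257).

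The Cdkn1b difference kept its sign in all 20 alternative settings, but its size varied on leaving out single clones. Under quantile normalization it was 0.17, as in the main fit. Without clone 2 with ascorbic acid it was 0.27, with an unadjusted limma p of 0.0142 and an adjusted p of 0.643, and under median centring it was 0.20, with an unadjusted p of 0.0475 and an adjusted p of 0.986. It was 0.08 without clone 1 with ascorbic acid and 0.09 with the mean of its probe sets. The other Cdkn1b probe set, 1419497_at, was dim, with a lowest value under 93.7, the average signal below which probe sets were left out. It read 158, 102, 112 and 111 with ascorbic acid, against 151, 83.3, 165 and 92.2 without. Its log2 difference was 0.0083 ± 0.23 (SE; adjusted limma p over all probe sets = 0.997), with a 95% interval of the fold from 0.711 to 1.42.

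Cdkn2a was read by 1 probe set, of the _a_at class, which reads several transcripts of a gene, so p16 and p19ARF messages cannot be told apart here. Its signals were 125, 117, 148 and 156 with ascorbic acid, against 157, 155, 145 and 128 without. All 8 values were low, close to the signal of 93.7 below which probe sets were left out, and present or absent calls were not used here. The log2 difference was -0.09 ± 0.16 (SE; limma, adjusted p = 0.957; exact permutation p = 0.4), with a 95% interval of the fold from 0.739 to 1.19. It ran from -0.15 without clone 4 to -0.03 without clone 2, both with ascorbic acid, and was -0.06 under quantile normalization and under median centring.

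Its neighbour on chromosome 4, Cdkn2b, read 529, 516, 499 and 425 with ascorbic acid, against 458, 574, 531 and 396 without. The highest and the lowest clone both belonged to the group without ascorbic acid. The log2 difference was 0.02 ± 0.12 (SE; limma, adjusted p = 0.989; exact permutation p = 0.943). Its sign changed on leaving out single clones, over a range from -0.08 to 0.09.

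Cultured fibroblasts can express the Cdkn2a and Cdkn2b genes, so markers of fibroblasts and feeder cells are given beside them. Of 30 such markers, 29 had a probe set and 25 were tested. None passed the adjusted threshold. With ascorbic acid 3 were higher and 22 lower, where 51.4% of all genes were lower, and the median log2 difference was -0.17. An unadjusted limma p under 0.05 was found in 9, or 36%, against 5.83% of all genes, 8 of them lower and 1 higher. Summed over the 29 markers with a probe set, the signal per clone spanned 56152 to 68363 with ascorbic acid and 65565 to 70662 without it (exact permutation p = 0.0857). Col1a1, a fibrillar collagen, read 2652, 3243, 1707 and 2912 with and 3396, 2947, 3081 and 3440 without, and Thy1, a fibroblast surface protein, averaged 480 ± 83.2 with and 527 ± 122 without (SD, n = 4 each). Postn, a matrix protein, had a log2 difference of -0.38 and Twist1, a mesenchymal transcription factor, one of 0.52 (limma, Benjamini-Hochberg adjusted p = 0.749 for both). The markers Dcn, Lum, Fap and Twist2 were below the dim filter. In bulk RNA fewer cells of a type and less RNA per cell cannot be told apart, and the part of feeder RNA in the inhibitor signals was not tested.

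The markers of pluripotent cells were read for the label of the clones. All 14 were tested and none passed. With ascorbic acid 2 were higher and 12 lower, where 51.4% of all genes were lower. An unadjusted limma p under 0.05 was found in 1, or 7.14%, against 5.83% of all genes. Their summed signal per clone spanned 104866 to 124603 with ascorbic acid and 115619 to 129221 without it (exact permutation p = 0.0857). Pou5f1 averaged 10295 ± 948 with and 11283 ± 292 without, and Nanog 8948 ± 891 with and 9709 ± 294 without (SD, n = 4 each). Tcl1, a cofactor of AKT kinases, read 1493, 1733, 1603 and 840 with ascorbic acid, against 1828, 1841, 1684 and 1889 without (limma, Benjamini-Hochberg adjusted p = 0.834). Array medians were 134 to 156, the log2 signals of any pair of arrays correlated at 0.970 to 0.977, and no pair of arrays held the same values.

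The genes varied between clones within each group, and on the brightest probe sets several p53 targets had their extremes in the same clones. Clone 3 with ascorbic acid was the highest of the 8 in 4 of the 8 genes, which were Mdm2, Cdkn1a, Ccng1 and Zmat3. Clone 1 with ascorbic acid was the lowest in 3, which were Cdkn1a, Ccng1 and Zmat3, and it was the highest for Cdkn1b. This did not extend to most other probe sets of these genes. The lowest value on the second Cdkn1a probe set and on both other Ccng1 probe sets was in clone 4 with ascorbic acid. Their highest values, like that of the second Cdkn1b probe set, were in clones without it. Mdm2 probe set 1427718_a_at was again highest in clone 3 with ascorbic acid, at 3934, whereas 1457929_at was highest in a clone without it. Clone 4 without ascorbic acid was the lowest for Mdm2 and Cdkn2b. Among the pluripotency markers, Nanog was also lowest in clone 1 with ascorbic acid, at 8281, and highest in clone 3 with it, at 10232. Pou5f1 was lowest in clone 1 with ascorbic acid, at 9173, but highest in clone 4 without it, at 11571. The share of all tested genes with their extremes in clones 1 and 3 with ascorbic acid was not counted. The pattern is therefore not shown to be particular to p53 targets. The SD of log2 signals within groups had a median of 0.18 over the 8 genes and of 0.15 over all tested genes, and reached 0.37 for Perp.

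The arrays of these clones also differed in how the signal was distributed. The 100 brightest probe sets held 7.80% of the signal in clone 3 and 6.08% in clone 1 with ascorbic acid, where the range over all 8 arrays was 6.08% to 8.37%. The highest shares were in clones 4 and 3 without ascorbic acid, at 8.37% and 7.92%. Neither of these was the highest clone for any of the 8 genes on the brightest probe sets. Quantile normalization, which gives every array the same distribution, was applied to these deviations after the data were seen. It left clone 1 at -0.412 log2 from the mean of all clones for Zmat3, where it was at -0.419 as deposited. For Ccng1 the same clone was at -0.226 after it and at -0.295 as deposited, and clone 4 with ascorbic acid, at -0.238 after it, was then the lowest. For Cdkn1a clone 1 was at -0.136 after it and at -0.163 as deposited. Clone 3 was still the highest for all 4 genes, though for Cdkn1a it was at 0.123 beside 0.122 in clone 2 with ascorbic acid.

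**Figure D3:**
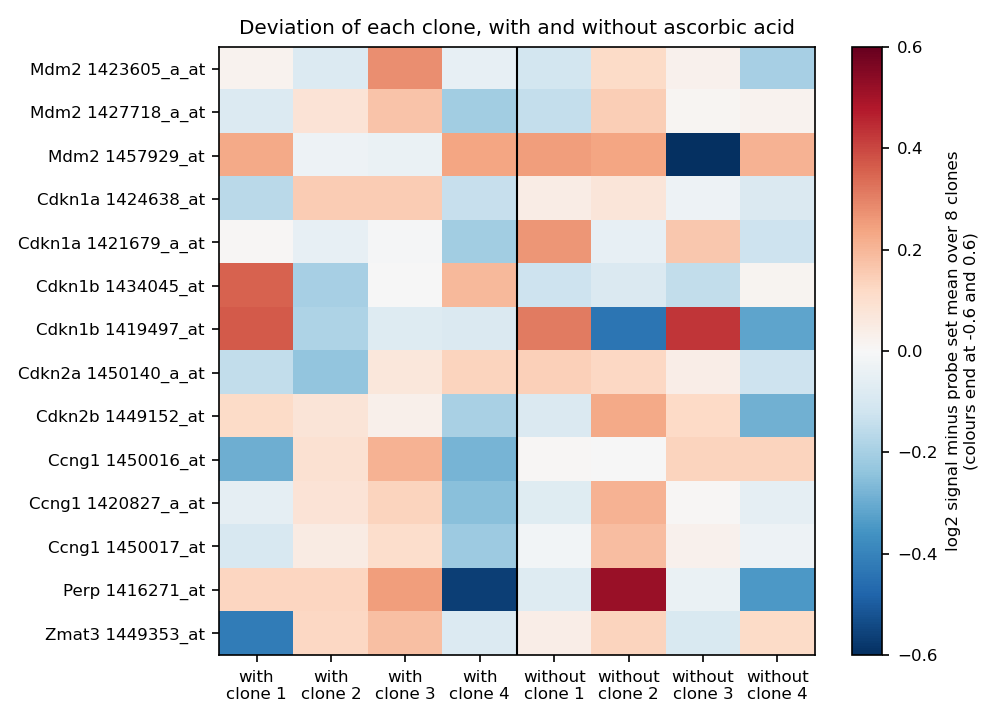
Log2 signal of each clone minus the mean of that probe set over all 8 clones (colour), for the 14 probe sets (rows) in clones with (left of the line) and without ascorbic acid (right). Strong colours include clone 4 with and clone 2 without ascorbic acid for Perp and clone 1 with ascorbic acid for Zmat3. The dim Cdkn1b probe set 1419497_at departed in several clones, from -0.438 in clone 2 to 0.427 in clone 3, both without ascorbic acid. Clone 3 without ascorbic acid for Mdm2 1457929_at, at -1.088, lies beyond the colour scale.

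Other genes of the pathway were read from 7 lists with 122 genes, of which 113 were tested. None passed the adjusted threshold. With ascorbic acid 55 were higher and 58 lower, and the median log2 difference was -0.0028. An unadjusted limma p under 0.05 was found in 9, or 7.96%, against 5.83% of all genes, 7 of them higher with ascorbic acid (3.06% of all genes) and 2 lower (2.77%). The groups did not overlap in 6, or 5.31%, against 3.63% of all genes.

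Further p53 targets numbered 31 tested of 35, with 17 higher and 14 lower and a median of 0.0043. Plk3, a polo-like kinase of the stress response, read 400, 420, 534 and 419 with ascorbic acid, against 271, 268, 295 and 270 without. Every clone with ascorbic acid lay above every clone without it, at a log2 difference of 0.64 ± 0.11 (SE; limma, adjusted p = 0.234). Gadd45a, a growth arrest and DNA damage gene, read 1018, 1105, 1009 and 1089 with ascorbic acid, against 939, 676, 950 and 886 without (log2 difference 0.30; limma, adjusted p = 0.757). Ddb2, a DNA damage recognition gene named after its values were seen, read 829, 751, 766 and 766 with and 744, 565, 671 and 701 without ascorbic acid (log2 difference 0.22; limma, adjusted p = 0.823). These were the 3 genes of the list with an unadjusted p under 0.05 and also the 3 whose groups did not overlap, each at 9.68% of the list, against 5.83% and 3.63% of all genes, and each had an exact permutation p of 0.0286, the smallest that 4 against 4 clones can give. Fas, a death receptor, was below the dim filter.

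Regulators of p53 were tested in 18 of 20 genes, with 8 higher and 10 lower and a median of -0.0032. Trp53bp1, a p53-binding protein of the DNA break response, read 1766, 1730, 1516 and 1681 with ascorbic acid, against 1417, 1437, 1494 and 1521 without (log2 difference 0.19; limma, adjusted p = 0.757). Clone 3 with ascorbic acid fell below the highest clone without it. Ppm1d, a phosphatase that switches the p53 response off, averaged 766 ± 41.9 with and 673 ± 96.6 without (n = 4 each, SD; in limma, adjusted p = 0.844). Trp63, a p53 family member, was below the dim filter.

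The remaining inhibitors of cyclin-dependent kinases were all tested and had differences below 0 that did not pass. Cdkn1c, which encodes p57 and is imprinted, read 541, 288, 372 and 363 with ascorbic acid, against 375, 388, 456 and 350 without (log2 difference -0.03; limma, adjusted p = 0.983). Cdkn2c, which encodes p18, read 82.4, 136, 137 and 218 with, against 231, 107, 145 and 236 without (log2 difference -0.30 ± 0.29, SE; limma, adjusted p = 0.907). Its lowest value was under the dim-filter limit of 93.7. Cdkn2d, which encodes p19INK4d, read 1124, 1063, 1115 and 1089 with, against 1138, 1045, 1131 and 1096 without. Its difference of -0.0055 had a 95% interval of the fold from 0.910 to 1.09 (limma, adjusted p = 0.992).

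Regulators of the Cdkn2a-Cdkn2b locus, largely Polycomb and Kdm2 proteins, were tested in 19 of 21 genes, with 9 higher and 10 lower. Tbx3, a T-box repressor of p19ARF that also acts in naive pluripotency, read 1313, 1458, 1372 and 1236 with ascorbic acid, against 1669, 1761, 1503 and 1625 without. Every clone with ascorbic acid lay below every clone without it, at a log2 difference of -0.28 ± 0.07 (SE; limma, adjusted p = 0.616). Kdm2b, a histone H3K36 demethylase that represses the locus, read 3977, 3478, 3927 and 4466 with ascorbic acid, against 3460, 3348, 3689 and 3215 without (log2 difference 0.20; limma, adjusted p = 0.770), with clone 2 with ascorbic acid inside the range of the other group. Tbx2, a relative of Tbx3, was below the dim filter.

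Genes that control the level of p21 and p27 were tested in all 13 cases, with 7 higher and 6 lower. Myc, which represses both inhibitor genes and is also encoded by the doxycycline-inducible cassette, read 306, 306, 205 and 379 with ascorbic acid, against 185, 169, 251 and 141 without. The log2 difference was 0.63 ± 0.20 (SE; limma, adjusted p = 0.749), clone 3 of each group fell into the range of the other, and whether the probe set reads cassette RNA was not tested. Fbxo7, an F-box protein that binds CDK6, averaged 721 ± 22.3 with and 824 ± 70.5 without (SD, n = 4 each; log2 difference -0.18; limma, adjusted p = 0.826).

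The RB pathway, on which the inhibitors act through their kinases, was tested in all 17 genes, with 9 higher and 8 lower. None had an unadjusted p under 0.05. Ccne2, a cyclin E, averaged 367 ± 40.5 with and 298 ± 52.7 without, and E2f2, a factor of S-phase entry, averaged 185 ± 19.4 with and 219 ± 18.6 without (n = 4 each, SD; in limma, adjusted p = 0.844 for both). For E2f2 every clone with ascorbic acid lay below every clone without it.

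In the BCL2 family, the partners and opponents of Bax in apoptosis, 12 of 13 genes were tested, with 5 higher and 7 lower. Bcl2l1, which encodes the survival protein BCL-XL, read 1663, 1528, 1533 and 1789 with ascorbic acid, against 1338, 1482, 1500 and 1167 without. Every clone with ascorbic acid lay above every clone without it, at a log2 difference of 0.25 ± 0.09 (SE; limma, adjusted p = 0.759). Bik, a BH3-only killer protein, averaged 134 ± 22.2 with and 98.3 ± 25.8 without (n = 4 each, SD; in limma, adjusted p = 0.844). Its signals were close to the dim-filter limit of 93.7.

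**Figure D4:**
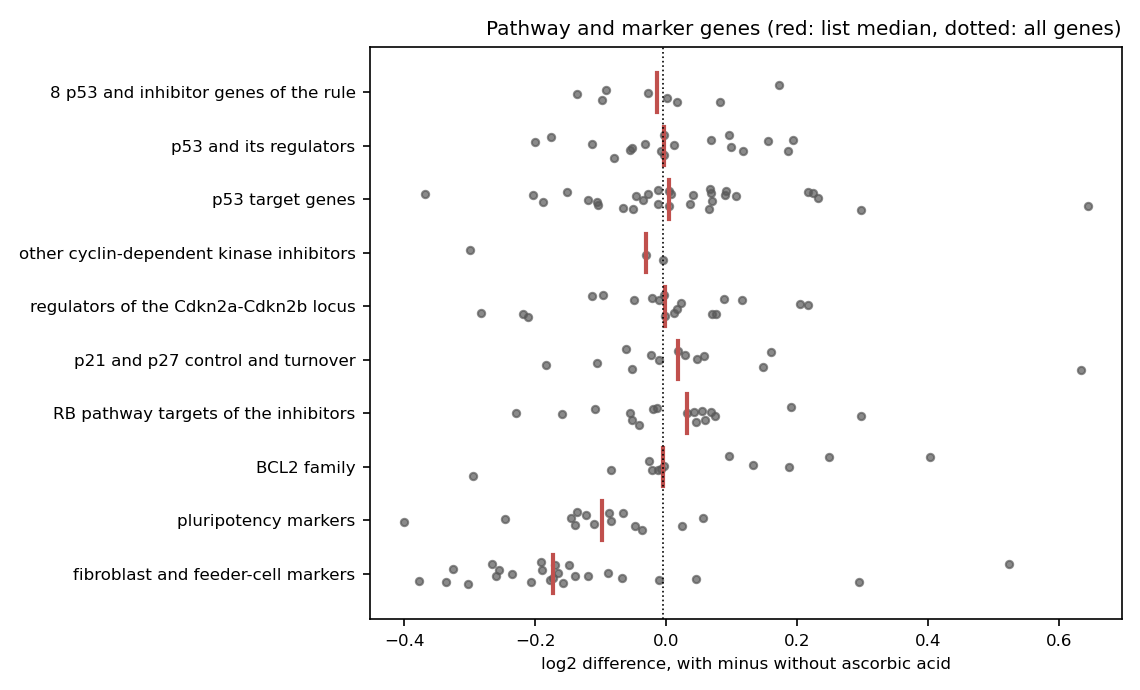
Log2 difference, with minus without ascorbic acid (x axis), of every tested gene (points) of the 8 p53 and inhibitor genes taken by the rule, of the 7 pathway lists and of both marker lists, each in a row of its own. Red bars are list medians and the dotted line is the median of all 13125 tested genes. The pathway medians lie between -0.03 and 0.03, while those of the pluripotency and fibroblast markers are -0.10 and -0.17.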

How the data were processed

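Expression was read in 8 iPS clones, 4 per group, grouped by the labels. The authors deposited, for each array, a linear signal intensity for every probe set. The submitters' processing notes name GCOS; how it was set is not given in the sources used here. By the values, each array was scaled to a mean of 500 after trimming 2% at each end.

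Of 45101 probe sets, 64 controls were left out, and genes were named through the platform annotation; all 14 probe sets of the genes described matched RefSeq through their Entrez identifiers. Signals were taken as log2(signal + 16) with the deposited scaling kept, since array medians spanned 0.199 log2 and the limit was 0.2. The 40% dimmest probe sets were left out, and the brightest probe set stood for a gene. Groups were compared with limma 3.58.1 under R 4.3.3 (lmFit, then trended eBayes), two-sided, over 13125 genes or, for single probe sets, over 27022 probe sets, with Benjamini-Hochberg adjustment. Exact permutation tests ran over 70 assignments of the clones, two-sided. Scripts were tested on simulated data. Drawings used matplotlib 3.10.9.

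The text names all genes of the rule, from each other list the 2 tested genes with the smallest p, all remaining inhibitors, and Pou5f1, Nanog, Thy1 and Col1a1. Ddb2, Eda2r and list genes below the dim filter are named besides. Alternatives were other scalings, pseudocounts, dim filters, probe set choices, eBayes settings, array weights, a replicate block and leaving out each clone. Genes and lists were chosen with earlier results of these data known. The labels give no pairing of the groups, and the main fit did not use the clone numbers to pair them. Deviations of clones with the same number correlated at -0.17 to 0.01 over genes, which cannot show whether such clones shared an origin.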

Additional observations from a re-analysis of the deposited data

Results flagged for a closer look

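In 72 groups of 4 clones, 6 (8.33%) held a clone far from the other 3. In these 6 the gap to the nearest clone was at least 0.83 of the range of the group. Chance gives about 5% for independent groups. The groups share the same arrays and include several probe sets of some genes, so the shares cannot be tested against each other. Mdm2 probe set 1457929_at gave 49.0 in clone 3 without ascorbic acid, while the other 3 gave 144 to 148. Cdkn1b probe set 1419497_at gave 158 in clone 1 with ascorbic acid, where the others lay between 102 and 112. Plk3 stood at 534 in clone 3 with ascorbic acid (others 400 to 420) and 295 in clone 3 without it (others 268 to 271). Clone 2 with ascorbic acid read 101 for Bik, against 141 to 149, and 161 for Twist1, a mesenchymal transcription factor, against 212 to 217. The 72 groups did not cover all 113 tested pathway list genes. Eda2r, a gene of the p53 target list that was not flagged, read 876, 911, 916 and 111 in clones 1 to 4 with ascorbic acid. Without it the gene read 787, 888, 813 and 436.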

How the results depend on the processing

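None of the 8 genes or the pathway list genes passed the adjusted threshold in 20 alternative settings, and none of the 14 probe sets in the 18 that were run for them. In the 16 settings in which overlap was counted, the groups overlapped in each of the 8 genes that was tested. With the clone number as a replicate block, 1 of these settings, none of the 8 genes was called, while 3 of all tested genes were, as in the main fit. The count with an unadjusted p under 0.05 was 1 (Cdkn1b) under median centring and 0 to 1 on leaving out each clone. Of 158 differences under alternatives, 144 kept their sign. The Cdkn1a difference turned to -0.0075 under quantile normalization and -0.064 with the mean of its probe sets, and ranged from -0.050 to 0.055 on leaving out clones. Perp turned to 0.0055 under median centring and ranged from -0.15 to 0.16 on leaving out clones, Cdkn2b from -0.077 to 0.095 and Zmat3 from -0.17 to 0.025. The Mdm2 difference was 0.20 without the _a_at probe sets, which leaves 1457929_at alone, and Cdkn2a has no value there or with the 60% filter. The number of arrays limits the precision.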
